A study of Caenorhabditis elegans with 20 samples.

Results

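The effect of vitamin B12 on gene expression was followed in wild-type Caenorhabditis elegans, in 10 of the 20 libraries of a study of D-2-hydroxyglutarate metabolism. The members were chosen by their labels alone: 5 libraries of supplemented animals were set against 5 libraries of animals without the supplement. The other 10 libraries were from dhgd-1(tm6671) deletion mutants raised without and with vitamin B12, and they entered the shared fit and a comparison of the responses. All animals were day 1 adults grown at 20 °C on Escherichia coli OP50. The supplement was 64 nM adenosylcobalamin in the growth medium, and the control medium was the same without it. Per the study's methods, strains were maintained with 64 nM adenosylcobalamin before experiments, so the control animals came from supplemented stocks. Cuticles were broken with SDS and DTT and the bodies were lysed while eggs were excluded, so each library held RNA from all tissues of the adult body. Libraries were made by a modified Cel-seq2 protocol, which counts reads near the 3′ end of transcripts. In such bulk samples fewer cells of a type and less RNA per cell cannot be told apart.

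The wild-type libraries held between 2837943 and 12641097 counted reads, with a median of 6549113 in the control group and 10650595 in the B12 group. Replicates 1 and 2 came from a library series named olga and replicates 5, 6 and 7 from a series named s, and each series held both groups. The series was a term in the fit. No list of tissue markers, germline genes or sperm genes had a called member, yet 9 of 9 tested pharynx markers had a log2 fold change below 0, with a median of -0.75. With the replicate number as a block the pharynx marker marg-1 (-1.46, adjusted p = 0.0201) and the intestine marker mtl-2, a metallothionein (0.90, adjusted p = 0.00697), passed. The summed level of the pharynx markers ran from 140 to 382 counts per 1000000 reads (CPM) without and from 62.7 to 208 CPM with vitamin B12, and the part of this difference in the results was not tested. Markers of the intestine, the tissue in which most of the metabolic genes described here are known to act, had a median log2 fold change of -0.01, and their summed level ran from 1550 to 2580 CPM without and from 1270 to 2920 CPM with vitamin B12. Among the intestine markers elt-2, the defining transcription factor, averaged 8.44 ± 5.15 CPM (SD, n = 5) without and 6.71 ± 1.24 CPM with the supplement.

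Vitamin B12 is a cofactor of only a few animal enzymes. Adenosylcobalamin serves methylmalonyl-CoA mutase, the last step of the canonical route that turns propionyl-CoA into succinyl-CoA, and methylcobalamin serves methionine synthase, which returns homocysteine to methionine. When vitamin B12 is scarce, C. elegans is known to degrade propionate by another route, the propionate shunt, whose genes are switched on by a regulatory circuit that responds to propionate. A second circuit is known to raise genes of the methionine and S-adenosylmethionine cycle when that cycle runs low.

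With vitamin B12, 163 of 11270 tested genes were called (1.45%), of which 87 were higher (0.772%) and 76 were lower (0.674%). The thresholds were 0.05 for the adjusted p and 1.5 for the fold change. The summed level of the genes that fell was 8186 CPM without and 3057 CPM with vitamin B12. For the genes that rose it was 1847 and 6025 CPM. Which set stood higher in a group follows in part from the direction of the calls. Of the genes that fell, ahcy-1 alone held 2554 CPM without and 1255 CPM with vitamin B12. The median gene that fell stood at 22.7 CPM in controls and at 6.45 CPM with the supplement, and the median gene that rose stood at 4.87 and 17.2 CPM. The median control level over all tested genes was 15.4 CPM. Changes over 4-fold were found for 31 genes that rose and 37 genes that fell, and the median log2 fold change over all tested genes was -0.03. Of the called genes, 107 had groups that did not overlap, against 166 of all tested genes (1.47%). At an unadjusted p under 0.05, 885 genes passed. With the replicate number as a block, 160 genes were higher and 111 lower, the 163 among them.

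**Figure D1:**
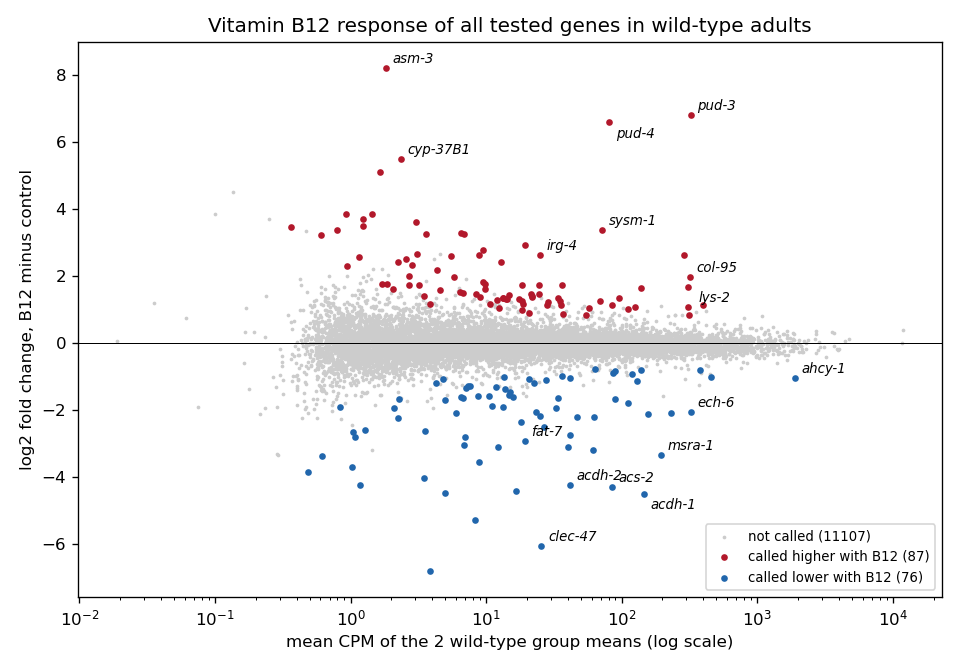
Each point is 1 of 11270 tested genes, with the mean of the control and B12 group means in CPM on a log scale on the x axis and the log2 fold change with vitamin B12 in wild type on the y axis. The 87 genes that rose are red and the 76 that fell are blue. The strongly lowered acdh-1, acs-2, acdh-2 and msra-1 were abundant in controls, and pud-3 and pud-4 had among the highest fold changes and became abundant with the supplement.

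The propionate shunt was the pathway in which every gene fell. All 5 genes were tested and all 5 were called lower, with a median log2 fold change of -2.10, against -0.03 over all tested genes and 0.674% of genes called lower. The first step is acdh-1, an acyl-CoA dehydrogenase. Its levels in replicates 1, 2, 5, 6 and 7 were 373, 193, 271, 249.96 and 312 CPM without vitamin B12. With vitamin B12 they were 11.98, 6.40, 30.2, 6.51 and 5.82 CPM. The groups were far apart, and replicate 5 kept the highest level with vitamin B12. The log2 fold change was -4.53 ± 0.51 (SE, adjusted p = 3.55e-06), and the mean level with vitamin B12 was 4.35% of that in controls.

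The later steps of the shunt fell less. The enoyl-CoA hydratase ech-6 had 659.9, 460.2, 502, 435 and 535 CPM in controls and 124, 145, 154, 79.7 and 127 CPM with vitamin B12. Its groups did not overlap, and its log2 fold change was -2.08 ± 0.20 (adjusted p = 2.13e-07). The hydrolase hach-1 had 392, 594, 268, 282 and 323 CPM in controls and 80.3, 132, 109, 49.996 and 64.4 CPM with vitamin B12, again without overlap (log2 fold change -2.10 ± 0.26, adjusted p = 1.1e-05). Next comes hphd-1, the dehydrogenase that oxidises 3-hydroxypropionate and yields D-2-hydroxyglutarate. It had 151, 133, 86.8, 107 and 76.1 CPM in controls and 22.6, 13.7, 16.9, 6.33 and 4.51 CPM with vitamin B12. Every supplemented library was below every control, and the log2 fold change of -3.21 ± 0.32 (adjusted p = 5.98e-07) was the second largest in the pathway. The last enzyme, the malonic semialdehyde dehydrogenase alh-8, had 785, 606, 722, 464 and 446 CPM in controls and 355, 402, 408, 225 and 138 CPM with vitamin B12. The groups just missed each other, and alh-8 changed least of the 5 (log2 fold change -1.03 ± 0.23, adjusted p = 0.0148). Its call was kept in 10 of 10 fits that left out 1 library, with adjusted p up to 0.0484. On the 10 wild-type libraries alone its adjusted p was 0.134, so it was not called there. The alh-8 gene overlaps F13D12.8 on the opposite strand, whose log2 fold change was -0.02.

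Genes attached to the shunt fell with it. The enzyme that removes D-2-hydroxyglutarate is encoded by dhgd-1, which had 27.9, 28.8, 21.8, 15.1 and 16.9 CPM in wild-type controls and 8.10, 7.53, 9.21, 5.87 and 8.45 CPM with vitamin B12. The groups did not overlap (log2 fold change -1.47 ± 0.29, adjusted p = 0.00588). The gene body of dhgd-1 overlaps 4 other protein-coding genes, none of which was called. The acyl-CoA dehydrogenase acdh-2, a close relative of acdh-1, had 24.2, 40.3, 121.7, 113 and 97.5 CPM in controls and 2.11, 3.39, 10.29, 1.47 and 2.91 CPM with vitamin B12. The 3 control libraries of the s series were above both of the olga series, every supplemented library was below every control, and replicate 5 was again the highest with vitamin B12 (log2 fold change -4.25 ± 0.48, adjusted p = 4e-06). Reads assigned to the insulin-like peptide gene ins-13 moved in parallel (-4.50 ± 0.65, adjusted p = 0.00012), but ins-13 (chromosome II, 5544512 to 5544864, WBcel235) overlaps acdh-2 (5544778 to 5547492) on the same strand, so reads from the shared stretch cannot be assigned to 1 of them. The insulin-like gene ins-12, which lies 7124 bases from acdh-2 on the opposite strand, was also lower, at 3.73 ± 1.89 CPM in controls and 0.771 ± 0.488 CPM with vitamin B12 (log2 fold change -2.25, adjusted p = 0.00437).

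**Figure D2:**
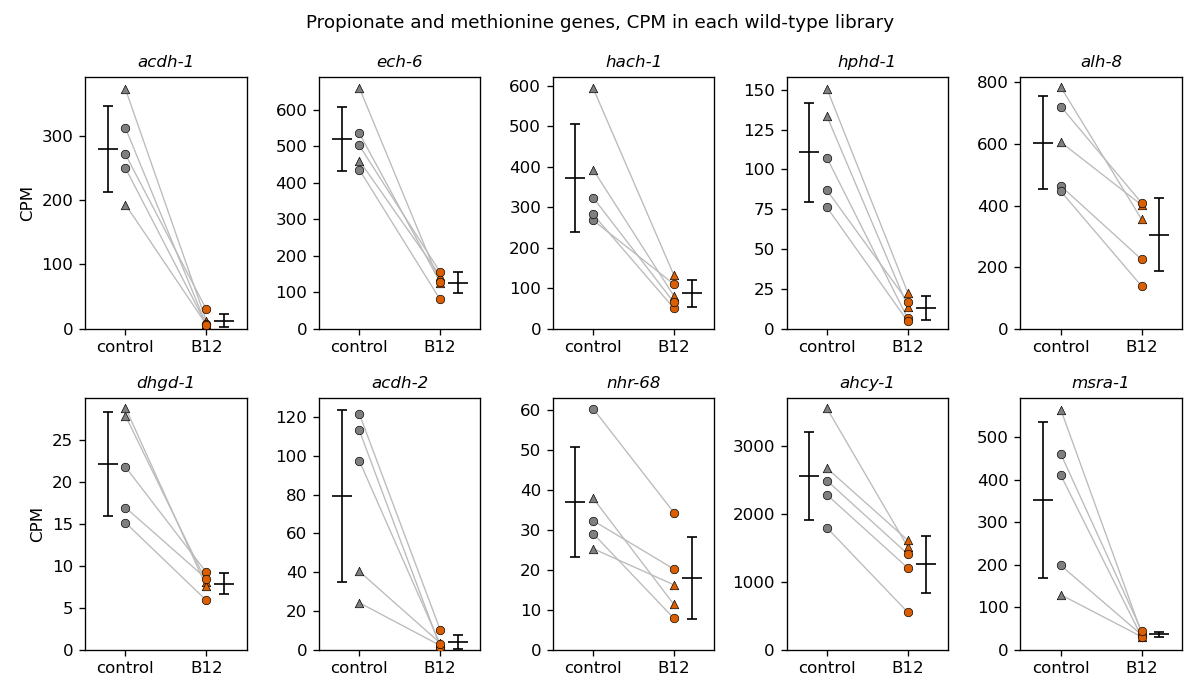
Each panel shows 1 gene, with CPM in the 5 control and 5 B12 wild-type libraries on the y axis, starting at 0. Triangles are the olga series, circles the s series, lines join libraries with the same replicate number, and bars give the mean and SD. Of the 10 genes, nhr-68 is the one whose groups overlap, with 1 supplemented library at 34.3 CPM among the controls.

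A list of genes of the canonical propionate route and of vitamin B12 handling had no member that passed the test. Of 9 genes tested, 0 were called by edgeR, and their median log2 fold change was -0.23. The list need not be complete: the ABC transporter pmp-5, called lower (-2.23, adjusted p = 1.13e-06), was not in it. Methylmalonyl-CoA mutase, mmcm-1, averaged 125 ± 15.5 CPM without and 99.9 ± 27.1 CPM with vitamin B12 (log2 fold change -0.35 ± 0.21, adjusted p = 0.814). Propionyl-CoA carboxylase subunits pcca-1 and pccb-1 had log2 fold changes of -0.25 and -0.23, the epimerase mce-1 -0.06, the adenosyltransferase mmab-1 -0.20, the cobalamin processing gene cblc-1 -0.22, the methionine synthase reductase mtrr-1 -0.52 and the transporter mrp-5 0.26. The largest difference in this list was in mmaa-1, which handles the mutase cofactor: it had 154, 120.5, 104.4, 93.8 and 175 CPM in controls and 66.2, 78.5, 69.2, 78.2 and 125.5 CPM with vitamin B12. The value was lower in 5 of 5 pairs but the groups overlapped through replicate 7 (-0.67 ± 0.19, adjusted p = 0.0964). With the replicate number as a block, mmaa-1 passed at -0.65 (adjusted p = 0.0168).

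Genes of the methionine and S-adenosylmethionine cycle leaned lower as a list. All 10 tested genes had a log2 fold change below 0, with a median of -0.62, and 1 was called. That gene was ahcy-1, which hydrolyses S-adenosylhomocysteine and was the most abundant gene called in wild type. It had 3549, 2668, 2486, 2276 and 1791 CPM in controls and 1511, 1608, 1405, 1202 and 549 CPM with vitamin B12. Every supplemented library was below every control (log2 fold change -1.05 ± 0.22, adjusted p = 0.00942). The call was kept in 10 of 10 fits that left out 1 library, with adjusted p up to 0.0308. On the 10 wild-type libraries alone the adjusted p of ahcy-1 was 0.0941, so it was not called there.

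Values of sams-1 and mthf-1 were further from 0 but did not pass. The S-adenosylmethionine synthetase sams-1 had 1274, 619, 439.7, 113.6 and 133 CPM in controls and 329, 509, 167, 72.2 and 38.3 CPM with vitamin B12, lower in 5 of 5 pairs with wide overlap between the groups (-1.27 ± 0.39, adjusted p = 0.147). Replicates 6 and 7 had the lowest sams-1 levels in both groups. Methylenetetrahydrofolate reductase, mthf-1, averaged 397 ± 132 CPM in controls and 191 ± 76.1 CPM with vitamin B12 (-1.07 ± 0.30, adjusted p = 0.0915). With the replicate number as a block both passed, sams-1 at -1.203 (adjusted p = 0.00611) and mthf-1 at -1.096 (adjusted p = 0.0103). Methionine synthase itself, metr-1, had a log2 fold change of -0.72 ± 0.32 (adjusted p = 0.52), mel-32 had -0.82, dao-3 -0.52, sams-3 -0.44, sams-4 -0.43 and folt-1 -0.27, none of them called. Too few reads fell on sams-5 for a test.

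Sulfur leaving the cycle passes through cystathionine β-synthase, and its gene cbs-1 was the 1 called gene among 15 of transsulfuration and sulfide metabolism. It had 23.0, 16.5, 7.16, 9.16 and 9.02 CPM in controls and 56.0, 55.9, 29.7, 27.7 and 11.5 CPM with vitamin B12. The level was higher in 5 of 5 pairs, although the groups overlapped because replicate 7 moved little (log2 fold change 1.45 ± 0.27, adjusted p = 0.00285). The γ-lyases that follow, cth-1 and cth-2, had log2 fold changes of 0.02 and 0.38, and the median of the list was 0.02. Phosphatidylcholine synthesis, a main consumer of methyl groups from S-adenosylmethionine, had 0 called genes of 10. Its methyltransferase pmt-2 came closest, at 386 ± 93.5 and 232 ± 78.4 CPM (-0.79 ± 0.22, adjusted p = 0.0868), and passed with the replicate block (-0.78, adjusted p = 0.0399).

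Outside these lists, some other called genes with roles in methionine, thiol and folate chemistry fell. They were chosen after their values were seen. The methionine sulfoxide reductase msra-1 had 565, 129, 198, 410.1 and 460.2 CPM in controls and 38.8, 30.1, 34.4, 30.1 and 43.8 CPM with vitamin B12. Control levels varied more than 4-fold while the supplemented libraries lay close together, all below the lowest control (log2 fold change -3.36 ± 0.33, adjusted p = 4.41e-07). The predicted folate transporter folt-2 went from 256 ± 119 to 58.5 ± 34.5 CPM (-2.13 ± 0.29, adjusted p = 5.07e-05).

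Among regulators, 2 of 13 tested genes were lower. The nuclear hormone receptor nhr-68, an activator of the shunt, had 37.9, 25.2, 32.3, 29.0 and 60.3 CPM in controls and 11.3, 16.2, 20.1, 7.80 and 34.3 CPM with vitamin B12. It was lower in 5 of 5 pairs but its groups overlapped (log2 fold change -1.104 ± 0.28, adjusted p = 0.0418). Its call was kept in 2 of 10 fits that left out 1 library, with the adjusted p reaching 0.176 without control replicate 1. The receptor nhr-114, an activator of methionine cycle genes, had 14.8, 11.8, 11.5, 4.43 and 6.17 CPM in controls and 2.82, 6.40, 3.70, 1.01 and 2.44 CPM with vitamin B12, also lower in 5 of 5 pairs (-1.62 ± 0.34, adjusted p = 0.0092). By contrast nhr-10, the partner of nhr-68 in the shunt circuit, had a log2 fold change of -0.11, nhr-49 of -0.27, sbp-1 of 0.15 and mdt-15 of -0.20. In the whole receptor family 0 of 132 tested genes were called higher and 3 were called lower. That share of 2.27% was near the 1.45% called over all tested genes. The third gene was nhr-3 (-1.02, adjusted p = 0.0442). Its call was kept in 2 of 10 such fits, with an adjusted p of 0.227 without control replicate 5. A further receptor, nhr-156, passed with the replicate block (-2.36, adjusted p = 0.04).

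Lipid genes changed at a few points and not along whole pathways. The acyl-CoA synthetase acs-2, which activates fatty acids for mitochondrial oxidation, had 113.7, 192, 101, 241 and 158 CPM in controls and 7.40, 10.5, 11.2, 6.605 and 6.38 CPM with vitamin B12. Its groups did not overlap (log2 fold change -4.31 ± 0.46, adjusted p = 1.39e-06), and it was 1 called gene of 15 acyl-CoA synthetases. The stearoyl-CoA desaturase fat-7 had 12.6, 6.59, 75.8, 48.7 and 25.6 CPM in controls and 2.47, 1.13, 5.69, 8.16 and 5.54 CPM with vitamin B12. It fell in 5 of 5 pairs, with overlap because its control level in replicate 2 was low (-2.92 ± 0.41, adjusted p = 7.47e-05). The other desaturase of the same step, fat-6, averaged 380 ± 53.6 and 377 ± 130 CPM (-0.09 ± 0.20). Apart from these lipid genes, the ABC transporter pmp-5 went from 103 ± 19.2 to 22.6 ± 5.12 CPM (-2.23 ± 0.23, adjusted p = 1.13e-06). It was the 1 called gene of 34 ABC transporters (2.94%, against 1.45% of all tested genes).

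No carnitine palmitoyltransferase (4 tested), acyl-CoA oxidase (7), fatty acid elongase (5) or lipid binding protein (8) was called. The short-chain dehydrogenase dhs-25 fell from 77.1 ± 24.4 to 16.8 ± 6.53 CPM (-2.23, adjusted p = 0.000526) and, beside alh-8, was the other called gene of 42 short-chain, aldehyde and alcohol dehydrogenases, while dhs-3 passed with the replicate block (0.72, adjusted p = 0.0382). Branched-chain amino acid breakdown had 0 called genes of 12, although 11 had a log2 fold change below 0 (median -0.26). With the replicate block ivd-1 (-0.78, adjusted p = 0.00884) and acdh-9 (-0.90, adjusted p = 0.0039) passed there, and the lipid binding protein lbp-7 passed at 1.17 (adjusted p = 0.0108).

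The ketone body list held 5 genes of a pathway that the study singled out by an enrichment test on these same libraries, so their direction is not independent evidence. All 5 had a log2 fold change below 0, with a median of -0.73, and 1 was called. The thiolase kat-1 had 51.7, 50.8, 54.9, 33.3 and 50.2 CPM in controls and 20.4, 30.1, 36.7, 14.04 and 23.5 CPM with vitamin B12, lower in 5 of 5 pairs. Its log2 fold change was -0.98 ± 0.22 (adjusted p = 0.0188), and the call was kept in 7 of 10 fits that left out 1 library, with an adjusted p of 0.0947 without B12 replicate 1. The acetoacetyl-CoA synthetase sur-5 (-0.73, adjusted p = 0.0816) and C05C10.3 (-0.81, adjusted p = 0.12) were lower in 5 of 5 pairs and passed with the replicate block, at -0.76 (adjusted p = 0.0126) and -0.84 (adjusted p = 0.0307). C05C10.3 overlaps the acid phosphatase gene pho-11 on the opposite strand, which was called in the other direction (log2 fold change 1.25, adjusted p = 0.0323), a call kept in 4 of 10 fits that left out 1 library. The remaining members, ech-7 and T02G5.7, had log2 fold changes of -0.08 and -0.21.

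Central energy metabolism showed no called gene. Of 23 tricarboxylic acid cycle genes, 67 oxidative phosphorylation subunits, 82 cytosolic ribosomal proteins and 47 heat shock proteins and chaperones, 0 were called by edgeR, and the list medians were -0.13, -0.10, 0.01 and 0.01. Of 5 genes of the glyoxylate cycle and gluconeogenesis none was called either, with a median of -0.68. The vitellogenins, yolk proteins made in the intestine, had 0 called of 6. Their summed level ran from 3080 to 9680 CPM without and from 1530 to 13500 CPM with vitamin B12.

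Every tested gene rose among the pud genes, a family of small proteins named for their abundance in daf-2 mutants, which have reduced insulin signalling. Of 6 genes 4 had enough reads to be tested, and all 4 were higher, with a median log2 fold change of 5.23. In controls pud-3 stood at 4.19, 4.39, 7.54, 4.28 and 7.04 CPM, and with vitamin B12 at 874, 458, 378, 598 and 896 CPM. The ratio of the group means was 117, and the log2 fold change was 6.82 ± 0.34 (adjusted p = 1.63e-12).

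The neighbouring pud-4 went from 0.483, 1.65, 3.34, 0.305 and 1.90 CPM to 139.5, 101, 127, 143 and 286 CPM, so the groups were again far apart (6.61 ± 0.46, adjusted p = 9.04e-10). Of the other tested members, pud-1.1 had at most 0.458 CPM in any control and 1.06, 0.188, 3.52, 3.76 and 4.88 CPM with vitamin B12 (at least 5.86-fold higher when controls are set to a floor of 3 counts per library). The tested copy of pud-2.2 was at 0 in both olga libraries with vitamin B12 and at 2.53, 2.66 and 6.48 CPM in the s series. All 4 lie together on chromosome V, between 2323014 and 2330930 (WBcel235). They include near-identical copies between which reads may be split, so the separate values of pud-1.1 and pud-2.2 are uncertain.

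Enzymes that break down lipids in the lysosome and outside the cell rose in several cases. Of 8 tested sphingolipid hydrolases all 8 had a log2 fold change above 0, and 3 were called higher, with a list median of 0.84. No read of the acid sphingomyelinase asm-3 was counted in any of the 5 controls, and 2.47, 1.51, 4.06, 5.87 and 4.32 CPM were measured with vitamin B12. Set against 3 counts per library, the floor, this was at least 7.97-fold higher (adjusted p = 4.25e-06). The acid ceramidase asah-1 went from 12.2, 13.4, 12.7, 4.89 and 11.2 CPM to 44.8, 64.0, 37.7, 28.5 and 18.1 CPM without overlap (1.72 ± 0.28, adjusted p = 0.000527).

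The glucocerebrosidase gba-4 went from 12.002 ± 6.58 to 31.6 ± 9.85 CPM (1.36, adjusted p = 0.0188), and its call was lost without control replicate 1 (adjusted p = 0.0561) or B12 replicate 7 (0.0524). Of 5 tested lipases, lipl-1 was at least 6.92-fold higher and lipl-2 was higher at 3.85 on the log2 scale (adjusted p = 0.00334). The level of lipl-2 was 0 in both olga libraries with vitamin B12 and 3.88, 1.47 and 3.57 CPM in the s series. Another lipase, lipl-5, passed with the replicate block (0.90, adjusted p = 0.0156). Of 21 aspartyl and cysteine proteases, with a median log2 fold change of -0.07, 4 fell, namely cpr-5 (-1.81, adjusted p = 1.71e-05), cpr-4 (-1.67), asp-13 (-1.14) and asp-2 (-0.86), and asp-14 rose (1.73). The call of asp-2 was kept in 2 of 10 fits that left out 1 library, with an adjusted p of 0.159 without control replicate 5, that of asp-13 was lost without control replicate 1 (0.0507) and that of asp-14 without B12 replicate 5 (0.0572).

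Among detoxification families, glutathione S-transferases and cytochromes P450 leaned higher. Of 29 tested glutathione S-transferases 6 were called higher and 0 lower, with a median log2 fold change of 0.26. The most abundant after supplementation was gst-28, at 20.0 ± 7.22 and 49.6 ± 22.03 CPM (1.24, adjusted p = 0.00942), and the largest change among those above 10 CPM was in gst-20. It had 4.67, 2.74, 5.34, 2.44 and 2.14 CPM in controls and 64.5, 59.3, 25.9, 9.72 and 15.96 CPM with vitamin B12, with the olga series highest (2.91 ± 0.37, adjusted p = 2.04e-05).

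The other called transferases were gst-38 (3.25), gst-10 (1.36), gstk-1 (1.33) and gst-42 (1.16). Calls of gst-10 and gst-42 were kept in 4 and 9 of 10 fits that left out 1 library, with adjusted p up to 0.0954 without B12 replicate 5 for gst-10 and 0.0528 without control replicate 6 for gst-42. Not called here, gst-6 (1.12, adjusted p = 0.0453) and gst-13 (0.998, adjusted p = 0.00468) passed with the replicate block. Of 34 cytochromes P450 3 were higher. The clearest was cyp-37B1, at most 0.161 CPM in any control and 7.75, 7.34, 3.07, 1.19 and 3.94 CPM with vitamin B12 (at least 10.2-fold higher, adjusted p = 4.82e-05). The others were cyp-35B1, at least 2.47-fold higher, and cyp-25A1 (1.72, adjusted p = 0.0482). The calls of cyp-25A1 and cyp-35B1 were kept in 3 and 8 of 10 fits that left out 1 library. The adjusted p reached 0.282 for cyp-25A1 (without B12 replicate 7, whose level was 10.7 CPM) and 0.0691 for cyp-35B1 (without control replicate 7). Of 49 UDP-glucuronosyltransferases 1 was called, ugt-9 (1.42, adjusted p = 0.01). That share of 2.04% was near the 1.45% called over all tested genes. Of the 49, 27 had a log2 fold change above 0 and 22 below 0. With the replicate block the P450 genes cyp-35A2 (1.44, adjusted p = 0.0123) and cyp-14A5 (1.15, adjusted p = 0.0123) and the transferases ugt-44 (1.57, adjusted p = 0.00894) and ugt-31 (1.06, adjusted p = 0.0316) passed as well.

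Genes of pathogen defence moved in both directions. Of 15 metallothionein, ferritin and infection-response genes 3 rose, all of them infection response genes. In controls irg-4 had 2.09, 3.02, 11.4, 5.65 and 11.4 CPM, and with vitamin B12 it had 17.6, 16.4, 51.9, 63.8 and 66.8 CPM, with no overlap and the s series higher in both groups (2.63 ± 0.25, adjusted p = 2.38e-07). The level of irg-5 went from 1.18 ± 0.812 to 12.6 ± 8.92 CPM (3.25, adjusted p = 2.78e-05) and that of irg-3 from 2.31 ± 1.13 to 6.88 ± 2.29 CPM (1.58, adjusted p = 0.00115).

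Of 9 tested lysozymes, lys-2 rose and lys-4 fell. Control levels of lys-2 were 157, 131, 117, 122.9 and 201 CPM, and with vitamin B12 they were 504, 346, 498, 389.8 and 629 CPM (1.66 ± 0.19, adjusted p = 3.71e-06). Those of lys-4 were 130.2, 105, 36.9, 39.1 and 50.2 CPM and became 14.4, 6.02, 7.86, 4.77 and 4.98 CPM (-3.10 ± 0.29, adjusted p = 2.13e-07). Neither gene had overlapping groups. C-type lectins showed the same mixture, with 3 of 65 higher and 1 lower. The fall of clec-47, from 67.98, 23.3, 37.98, 49.6 and 73.3 CPM to 0.352, 1.13, 0.632, 1.01 and 0.469 CPM, was among the largest in the data (-6.08 ± 0.38, adjusted p = 1.82e-10). Its relatives clec-67 (3.50), clec-190 (1.34) and clec-85 (1.25) rose. Leaving out 1 library raised the adjusted p of clec-67 to 0.0551 and of clec-190 to 0.0856, both without control replicate 7. Their calls were kept in 9 and 6 of 10 such fits. With the replicate block clec-65, clec-66 and clec-50 passed too, at 0.96, 0.97 and 0.93 (adjusted p = 0.0156, 0.0336 and 0.0138), as did clec-48 at -1.42 (0.00128) and the lysozyme lys-1 at 0.94 (0.00727).

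Saposin-like and antimicrobial genes had 3 called higher of 28, spp-18 (1.13), spp-8 (1.05) and spp-4 (0.85), and 0 lower. These were weak calls, kept in 2, 3 and 4 of 10 fits that left out 1 library. The adjusted p in such fits reached 0.126 for spp-18 (B12 replicate 6), 0.143 for spp-8 (B12 replicate 1) and 0.132 for spp-4 (B12 replicate 1). Of 8 genes named for lying downstream of daf-16, dod-3 (1.31) and dod-23 (1.06) were higher and the list median was 1.01. Their adjusted p reached 0.104 for dod-3 without B12 replicate 1 and 0.0995 for dod-23 without control replicate 6. The calls of dod-3 and dod-23 were kept in 3 and 5 of 10 such fits. With the replicate block spp-3 (0.72, adjusted p = 0.042), spp-5 (0.85, 0.0126), dod-22 (1.90, 0.00997) and dod-24 (1.17, 0.0187) passed too. For daf-16 itself the log2 fold change was -0.21.

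**Figure D3:**
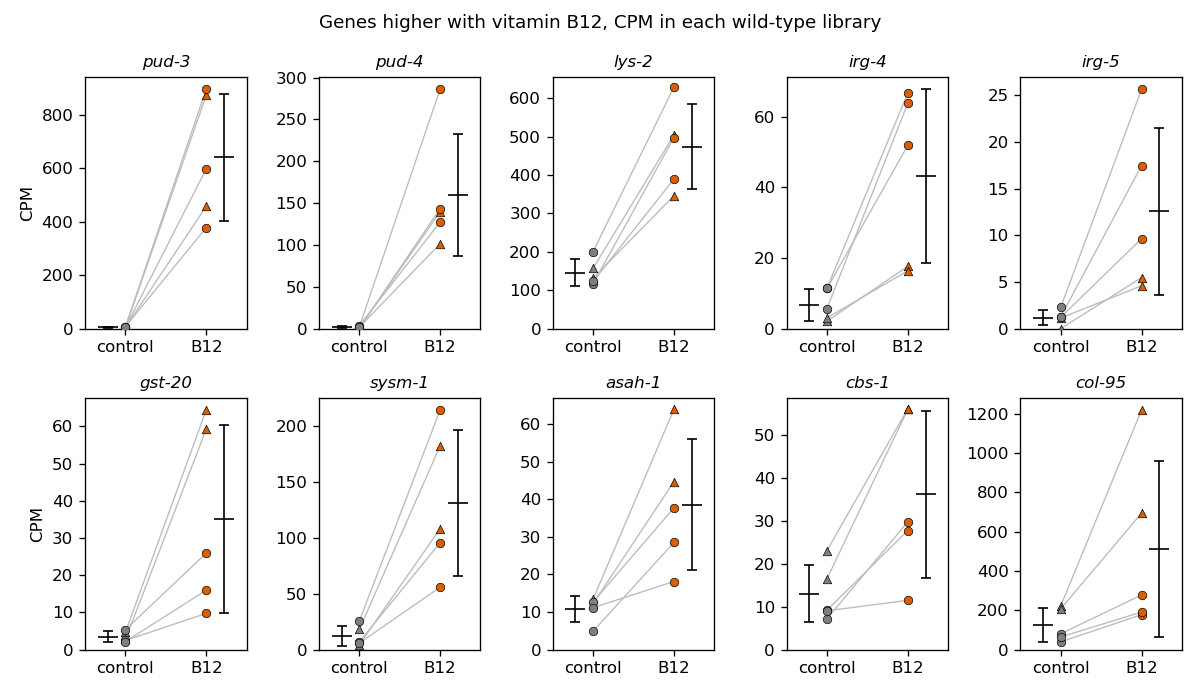
Each panel shows 1 gene, with CPM in the 5 control and 5 B12 wild-type libraries on the y axis, starting at 0. Triangles are the olga series, circles the s series, lines join libraries with the same replicate number, and bars give the mean and SD. Every line rises, and the groups of cbs-1 and col-95 overlap.

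Secreted and structural genes showed isolated changes. The cuticle collagen col-95 had 223, 208, 39.0, 80.6 and 64.3 CPM in controls and 1221, 695, 178, 278 and 191 CPM with vitamin B12. It was highest in the olga series in both groups and rose in 5 of 5 pairs (1.96 ± 0.29, adjusted p = 0.000147). With col-43 (1.96, adjusted p = 0.0228, and 0.0743 without control replicate 7) it made 2 called of 56 collagens, whose median was -0.12. That was 3.57%, against 1.45% of all tested genes. Of 117 neuropeptide and insulin-like genes nlp-28, an antimicrobial peptide gene of the epidermis, was higher (0.83, adjusted p = 0.0351, and 0.122 without B12 replicate 1). The called lower ones were ins-12 and ins-13. These 3 calls were 2.56% of the 117 genes. Calls of col-43 and nlp-28 were each kept in 5 of 10 fits that left out 1 library.

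Single called genes were found in the ground-like family (grd-4, 1.30, and 0.0558 as the adjusted p without B12 replicate 2), among SCP-like extracellular proteins (scl-2, 1.77, and 0.0922 without control replicate 7) and among 121 F-box and BTB/MATH genes (fbxa-72, -1.30, adjusted p = 0.0092). Calls of grd-4 and scl-2 were kept in 7 and 3 of 10 fits that left out 1 library. The share called was 3.45% of 29 hedgehog-related and ground-like genes, 16.7% of 6 SCP-like genes and 0.826% of the F-box and BTB/MATH genes. Over all tested genes it was 1.45%. Transthyretin-like genes (45), astacin proteases (13) and flavin monooxygenases (5) had no called member, though ttr-44 passed with the replicate block (1.18, adjusted p = 0.0145). Of the abundant genes outside the lists, spex-3 averaged 251.3 ± 208 CPM in controls and 550.4 ± 468 CPM with vitamin B12 (1.11, adjusted p = 0.00606), and the linker histone gene hil-5 averaged 478 ± 54.5 and 276 ± 65.0 CPM (-0.82, adjusted p = 0.0261). The call of hil-5 was kept in 6 of 10 fits that left out 1 library, with an adjusted p of 0.0882 without B12 replicate 1.

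Several of the largest changes were in genes outside the gene lists. Y38H6C.21 was at 13.2, 6.04, 5.06, 3.36 and 10.6 CPM in controls and at 0, 0, 0.0903, 0.0917 and 0 CPM with vitamin B12, which makes it at least 15.6-fold lower. F21C10.9 fell from 16.1 ± 8.51 to 0.437 ± 0.163 CPM (-5.29, adjusted p = 1.48e-07), C09B8.4 from 31.7 ± 10.4 to 1.47 ± 0.618 CPM (-4.44), clc-24 from 6.65 ± 4.36 to 0.297 ± 0.284 CPM (-4.05) and srh-237, a predicted chemoreceptor gene, from 16.4 ± 5.82 to 1.40 ± 0.906 CPM (-3.55).

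Upward, sysm-1 went from 4.35, 18.1, 6.87, 5.802 and 25.4 CPM to 108, 182, 95.6, 55.8 and 215 CPM, with every supplemented library above every control (3.37 ± 0.49, adjusted p = 0.00013). The level of txt-4 went from 0.379 ± 0.359 to 5.73 ± 2.48 CPM (3.61), that of nspe-5 from 1.04 ± 0.872 to 12.01 ± 8.19 CPM (3.28), that of C32H11.4 from 2.33 ± 1.26 to 16.7 ± 9.38 CPM (2.77) and that of sdz-24 from 0.806 ± 0.397 to 5.35 ± 3.42 CPM (2.64). Of the 163 called genes 63 were in 1 of the gene lists and 100 in none, and 68 had a sequence name and no gene name.

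**Figure D4:**
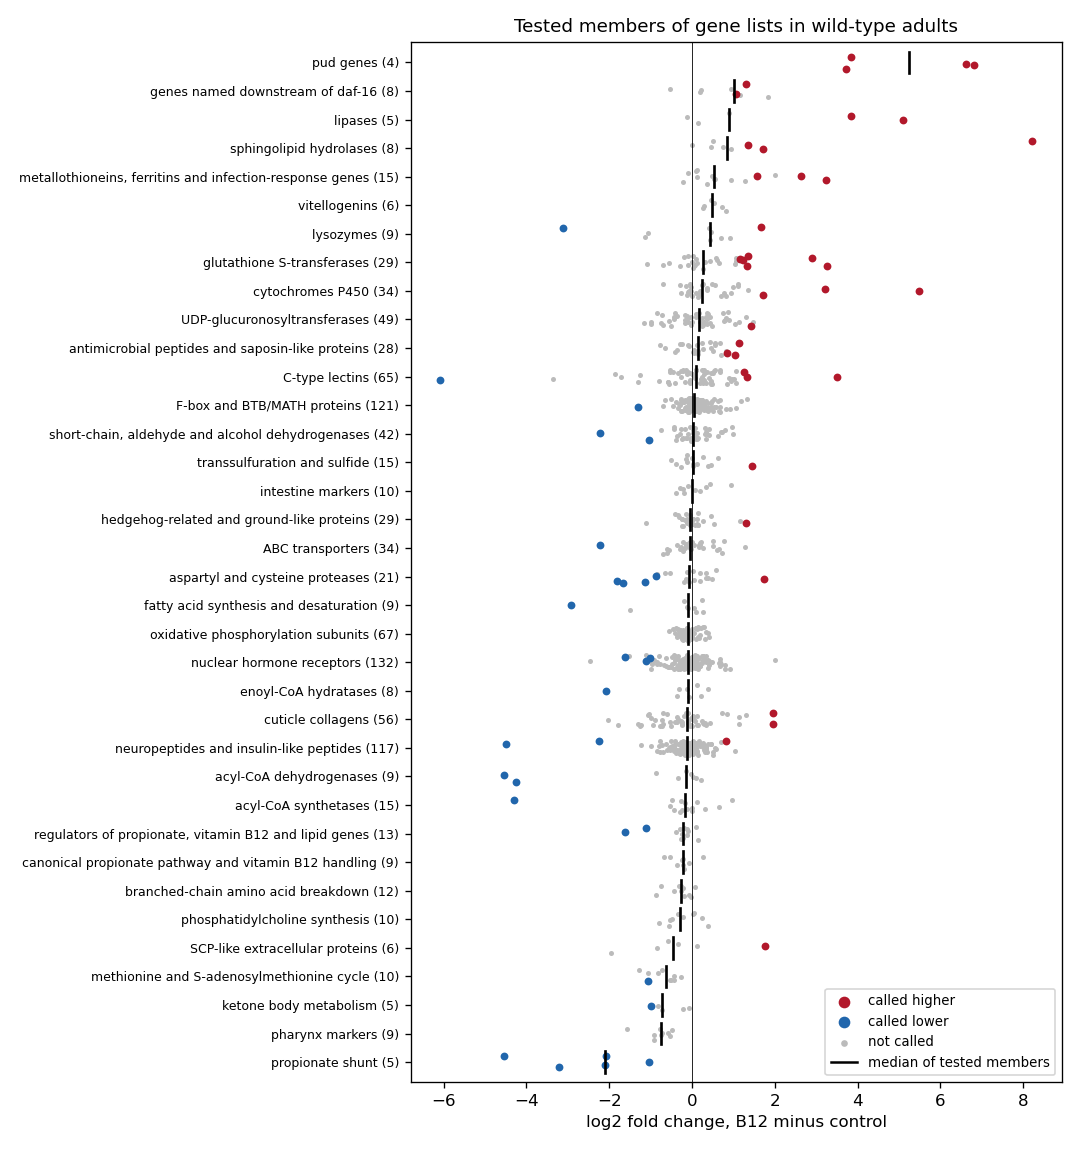
Each point is a tested gene of a list, with the number tested in brackets, and the x axis gives its log2 fold change with vitamin B12 in wild type. Red points rose, blue points fell, grey points were not called and black bars are medians. The propionate shunt (median -2.10) and the pud genes (median 5.23) have the medians furthest from 0 of the lists drawn.

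Called genes were spread unevenly over the chromosomes. On chromosome V 31 genes rose and 30 fell, which was 2.92% of its tested genes, and on chromosome I 2 rose and 7 fell (0.482%). Within 10000 bases of each other lay 14 of the genes that rose and 15 of those that fell, each beside another of the same direction. Besides the pud genes these included acdh-1 with C55B7.3, which starts 421 bases after it on the same strand, and Y38H6C.21 with Y38H6C.23, 422 bases apart on the same strand. Of the called genes 38 overlap another protein-coding gene, 29 of them on the opposite strand and 13 on the same strand, and for 4 the partner was also called. The counts of neighbours and overlaps were not made over all tested genes, and clustering was not tested.

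Deletion mutants of dhgd-1 were compared to see which changes were shared. With vitamin B12, 210 genes were called in the mutants (1.86%), and of the 163 genes called in wild type 94 were called in the same direction there, 44 higher and 50 lower. The fold changes had the same sign in both strains for 156 of the 163. Of the 5 shunt genes 4 were called in the mutants: acdh-1 at -2.10, hphd-1 at -1.47, hach-1 at -1.33 and ech-6 at -1.03, while alh-8 was at -0.62 (adjusted p = 0.247). The fall of acdh-1 was larger in wild type (difference -2.43 on the log2 scale), but this difference did not pass (adjusted p = 0.325), nor did that of hphd-1 (0.281). Of the strongest responses msra-1 (-3.46), clec-47 (-6.48), lys-4 (-3.26), pmp-5 (-2.25) and irg-4 (2.55) were called in the mutants at sizes near those in wild type. Others had smaller values in the mutants, among them acs-2 (-2.74), acdh-2 (-1.91), F21C10.9 (-3.14) and C09B8.4 (-2.38), but the differences from wild type did not pass (adjusted p = 0.885, 0.325, 0.614 and 0.885).

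The test of the difference itself called 5 genes (0.0444%), and 461 genes (4.09%) had an unadjusted p under 0.05. Of the 163 genes called in wild type 57 had such a p, and 51 of them had the larger response in wild type, where they had been chosen. Of the 5 called genes, pud-3 and lys-2 were among the genes called in wild type. For pud-3 the wild-type response exceeded that of the mutants by 3.27 on the log2 scale (adjusted p = 7.55e-05), with mutant means of 35.6 CPM without and 404 CPM with vitamin B12 against 5.49 ± 1.66 and 641 ± 237 CPM in wild type. For lys-2 the difference was 1.38 (adjusted p = 0.0426): the mutants already stood at 406 CPM without the supplement and at 479.6 CPM with it. The other 3 were not called in wild type. They were Y41C4A.32 (0.84 in wild type and -4.91 in mutants), suro-1 (0.72 and -1.96) and warf-1 (0.29 and -4.12).

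**Figure D5:**
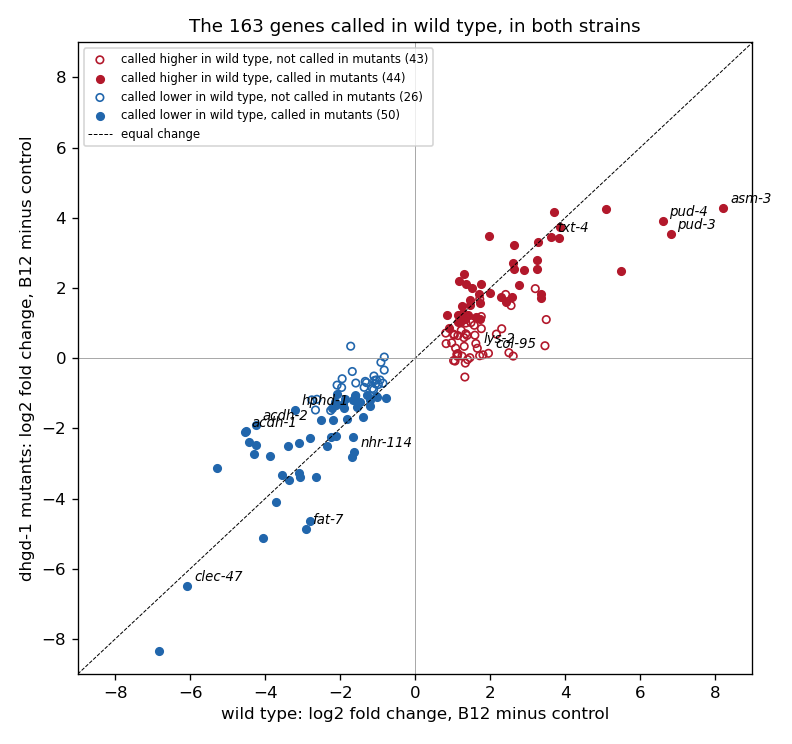
Each point is 1 of the 163 genes called in wild type, with its log2 fold change with vitamin B12 in wild type on the x axis and in dhgd-1 mutants on the y axis. Filled points were also called in the mutants, 44 of those that rose and 50 of those that fell, and the dashed line marks equal change. pud-3, pud-4 and asm-3 lie below the line on the right, and of all points shown pud-3 and lys-2 passed the test of a difference between the strains.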

How the data were processed

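The authors deposited 1 table of read counts per gene for 22736 genes in 20 libraries, each a whole animal sample of 1 of 4 groups with 5 biological replicates. Per the study's methods, Cel-seq2 libraries were demultiplexed, trimmed with Trimmomatic 0.32, aligned with STAR and counted with ESAT without pseudogenes. Aligner and counter versions, genome build, strand setting and the handling of molecular identifiers are not given in the sources used here. Where genes overlap, it is therefore not known to which of them reads from the shared stretch were counted. Groups and replicate numbers came from the sample labels, and the library series from the library names in them.

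Counts were analysed with edgeR 4.0.16 in R 4.3.3 (TMM, filterByExpr by group, glmQLFit and glmQLFTest with group and library series as terms, all 20 libraries). P-values were adjusted by Benjamini and Hochberg's method over 11270 genes. Adjusted p-values are from this quasi-likelihood test. Errors of log2 fold changes are approximate SE, the absolute log2 fold change divided by the square root of the test's F statistic. CPM are counts per 1000000 of a library's total and carry SD over 5 libraries. The test of a difference between strains used the same fit. Alternatives were DESeq2 1.42.0, other scalings, filters and terms, and leaving out libraries. The fitting code was tested on simulated data. Symbols and positions came from the WBcel235 annotation by WormBase identifier (22730 of 22736 matched). A group with at most 3 counts in every library was set to a floor of 3 counts per library, which covers counting error only. Figures were drawn with matplotlib 3.10.9 in Python 3.11.15.

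The 10 libraries were given by the comparison, and the gene lists were chosen with earlier results of these data known. Genes named in the text were called genes with the 10 largest fold changes up and the 10 largest down (mean count 20 or more, 1 direction in 5 of 5 pairs), the members of the core metabolic lists, called members of the other lists with a few uncalled examples, genes called by the test between strains, the 5 most expressed called genes in each direction, and genes said to be chosen after their values were seen. Genes gained with the replicate block were also named after their values were seen. Libraries with the same replicate number shared deviations from their group means: the correlation across genes of control and B12 libraries was 0.459 to 0.73, and every library correlated best with its own number. The pairing comes from this check and from the labels' numbers, not from a stated shared culture. Once the library series was removed the correlations were 0.0121 to 0.669. In the s series every library still correlated best with its own number. In the olga series this then held only for B12 replicate 2. No source names separate cultures beyond biological replicates, so p-values measure the spread between these samples.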

Additional observations from a re-analysis of the deposited data

Results flagged for a closer look

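The samples named here stood apart from the other 4 of their group, by a gap over 0.71 of the group's range. Of 199 groups of 5 wild-type libraries 18 were picked in this way (9.05%). Chance alone would pick about 1 in 20 if the values were normally distributed. CPM can be skewed or near 0, so the share of 9.05% cannot be compared directly with that rate. The library of B12 replicate 5 was high for acdh-1 (30.16 CPM, others 5.821 to 11.98), acdh-2 (10.29, others 1.468 to 3.389) and ins-13 (1.535), which overlaps acdh-2. The library of B12 replicate 7 was high for mmaa-1 (125.5 CPM), cblc-1 (36.71), dod-23 (680.6), cyp-25A1 (10.7) and pud-4 (286.1), and its control partner was high for cblc-1 (33.07) and cyp-25A1 (2.373). Control replicate 6 was low for kat-1 (33.29 CPM, others 50.23 to 54.88) and asah-1 (4.886) and high for mrp-5 (35.58). Control replicate 5 was high for cyp-35B1 (0.2863 CPM) and clec-67 (0.5726), and control replicate 1 for pccb-1 (431.6). B12 replicate 1 was high for spp-8 (149.1 CPM) and B12 replicate 2 low for suro-1 (1.694).

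The vitamin B12 response differed between the strains by the test of the difference for Y41C4A.32 (5.756, wild type minus mutants on the log2 scale), warf-1 (4.407), pud-3 (3.274), suro-1 (2.685) and lys-2 (1.375). Of these, warf-1 averaged 0.869 CPM without and 1.25 CPM with vitamin B12 in wild type, and 29.3 and 1.70 CPM in the mutants.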

How the results depend on the processing

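Of the 163 calls 0 changed sign under any alternative, and all 149 that could be tested in each library series alone had the same sign in both. Numbers of calls moved more. Without a low-count filter 187 genes were higher and 155 lower, with 80 in the test between strains. DESeq2 called 116 lower and 17 between strains. Without the series term 37 were higher, 43 lower and 2 differed between strains. With the replicate block 160 were higher and 13 differed between strains, and over all 20 libraries the block removed no call and, beyond those named, changed no other call of a named gene. On the 10 wild-type libraries alone 60 were higher and 53 lower, with 60 of the 163 lost, and with the block 185 were higher and 129 lower, with 17 lost. Within the olga series 5 were higher and 7 lower, and within the s series 36 and 43, with fewer libraries in each fit. Leaving out 1 library gave 61 to 89 higher and 61 to 87 lower, with 19 to 41 of the 163 lost in a fit and 99 kept in all 10, and between strains it gave 3 to 7 calls, with 3 when wild-type B12 replicate 1 was left out. Library totals without TMM shifted log2 fold changes by 0.04 and the share of higher calls from 53.4% to 56.8%. Uncalled values near 0 changed sign for ech-7 (0.0901 within the olga series), mce-1 (0.0837 within the s series) and warf-1 (-0.12 within the s series), and in fits leaving out 1 library they ran from -0.150 to 0.0641 for ech-7, from -0.325 to 0.114 for mce-1 and from -0.26 to 0.655 for warf-1. The causes were not tested. Totals as low as 2837943 counts limit genes below about 1 CPM, where 1 read decides a value.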

Other observations

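Some called genes lie outside the lists above and were chosen after their values were seen. D1086.3 was among the most abundant genes that rose, at 144, 48.6, 67.8, 71.3 and 57.9 CPM in controls and 438, 801, 310.3, 385 and 544 CPM with vitamin B12, without overlap (log2 fold change 2.62 ± 0.30, adjusted p = 4e-06). The acid α-glucosidase relative aagr-1 went from 8.25 ± 4.68 to 28.3 ± 7.86 CPM (1.72, adjusted p = 0.000305), and the ferroportin relative fpn-1.2 from 1.504 ± 0.975 to 7.17 ± 5.09 CPM (2.17, adjusted p = 0.000996). The globin glb-1 went from 77.6 ± 31.3 to 171 ± 52.7 CPM (1.08, adjusted p = 0.0061). Downward, rips-1 went from 39.7 ± 10.2 to 10.5 ± 6.53 CPM (-2.20, adjusted p = 5.09e-05) and the troponin T gene tnt-3 from 52.4 ± 16.9 to 13.6 ± 4.96 CPM (-1.96, adjusted p = 0.00042). Body wall muscle markers had 0 called of 9, with a median log2 fold change of -0.22.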
